A study of Mus musculus with 2 samples.

Results

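The 78 mitochondrial ribosomal protein genes examined here are the protein-coding genes on mouse chromosomes 1 to 19 whose symbol is Mrpl or Mrps followed by a digit, of 20722 protein-coding genes on those chromosomes. The 2 libraries, which form 1 group, are labelled as ATAC-seq, a measure of chromatin accessibility in which a transposase cuts and tags open DNA. Both came from primary T cells of mouse strain C57BL/6NJ. The labels give no treatment, and age and sex are recorded as unknown or not collected. They number the libraries as biological replicates 1 and 2 with separate sample records but the same donor record, so the spread between them may be technical. The labels link to a protocol for CD4+ T-cell differentiation, and peak names in the files carry the words Th0, ASTARR.insert and masked and a time in hours, none of which the labels explain. The assay is therefore known from the labels only, and reading the signal as accessibility depends on them. No other condition was present, so every value below is a description, and no test between conditions was possible.

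The mitochondrial ribosome makes the handful of proteins encoded by mitochondrial DNA, all of them subunits of the respiratory chain and the ATP synthase. Its ribosomal RNAs are made inside the organelle, whereas all of its proteins are encoded in the nucleus, made in the cytosol and imported. Some of these proteins descend from bacterial ribosomal proteins and others were added during the evolution of mitochondria. In T cells, activation is known to bring growth of the mitochondrial network and new synthesis of respiratory chain subunits. Symbols do not always give the place of a protein: Mrps18a and Mrps30 are part of the large subunit. Both were counted among the large-subunit genes without a bacterial counterpart, although Mrps18a is related to a bacterial ribosomal protein. Mrps36 is now known as a subunit of the 2-oxoglutarate dehydrogenase complex and was left unplaced.

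The deposited lists held 78104 accessible regions in replicate 1 and 74733 in replicate 2, with depth not given. A promoter was called accessible where both libraries had a region whose summit lay within 1000 bp of a protein-coding transcript start of the gene. All 10 genes of a T-cell marker list, among them Cd3e and Lck, had such a region. So did Pax5 and Ebf1, which mark B cells, while Cd79a and Ms4a1, also B-cell markers, did not. None of 5 myeloid and none of 3 hepatocyte markers had a region in both libraries. These are counts of presence and do not reflect strength. In signal, explained below, the 10 T-cell markers had a median of 6.19, against 11.2 for all accessible promoters, and none stood above that value. Averaged over the libraries, Pax5 had 10.3 and Ebf1 8.84. In such bulk libraries, fewer cells with an open site and less opening per cell cannot be told apart.

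Of the 78 genes, 77 (98.7%, exact Clopper-Pearson 95% interval 93.1 to 99.97%, which covers counting error only) had an accessible promoter. The same was true of 13302 of all 20722 protein-coding genes (64.2%). All 17 small-subunit genes with a bacterial counterpart, all 9 without one and all 21 large-subunit genes without one were accessible, as was Mrps36. Of the 30 large-subunit genes with a bacterial counterpart, 29 were. The exception was Mrpl34, a large-subunit gene on chromosome 8. A single wide region covered its start in both libraries, at chr8:71462597-71465347 (mm10) in replicate 1 and chr8:71462677-71465310 in replicate 2. Its summit lay 1345 bp upstream of Mrpl34 in replicate 1, 41 bp from a start of Abhd8, but 82 bp upstream of Mrpl34 in replicate 2. The region's signal was 6.72 in replicate 1 and 5.13 in replicate 2. Mrpl34 thus fell outside the definition through where the summit was placed in 1 library, and its start was not without a region.

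Signal is the authors' value for each region, read as fold enrichment over the local background, and each gene took its strongest promoter region. The median promoter signal of the 77 genes was 13.7 in replicate 1 and 12.8 in replicate 2, against 11.5 and 10.9 over all 13302 accessible promoters. Averaged over the libraries, the 77 genes ran from 5.15 to 19.3 with the middle 50% between 10.7 and 15.8. Of the 77, 53 (68.8%) stood above the median of all accessible promoters, where 50% of promoters stand by construction. In the top 10% by signal were 23 of the 77 (29.9%), and 1 was in the bottom 10%. Fold enrichment does not measure transcription, and no RNA was measured here.

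**Figure D1:**
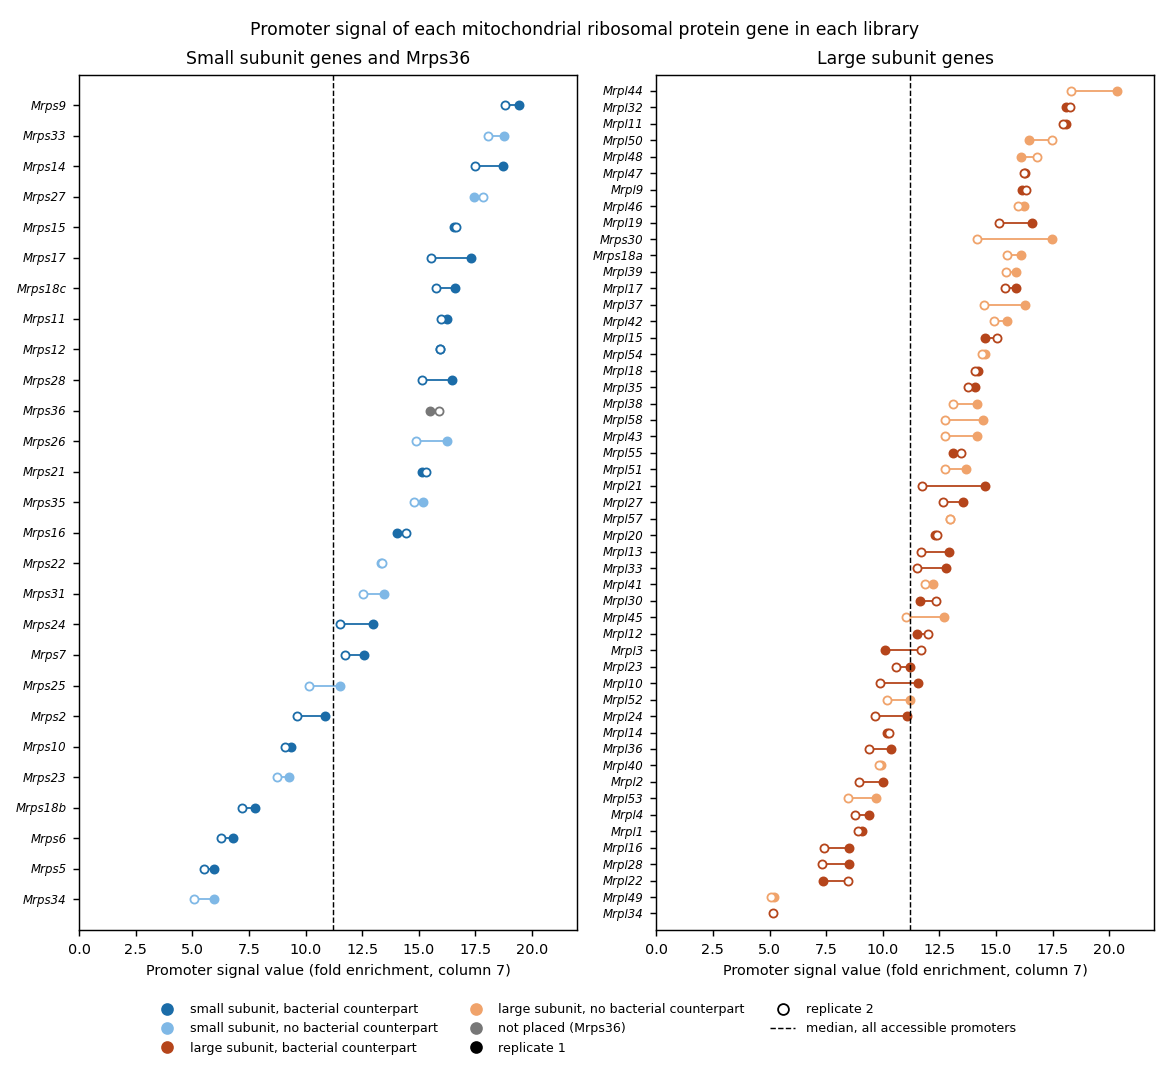
Promoter signal (x axis, fold enrichment) of each gene (y axis), with filled points for replicate 1 and open points for replicate 2, colours for subunit and bacterial counterpart, and a dashed line at the median of all accessible promoters (11.2). Most genes lie right of the line, and Mrpl34 has only a replicate 2 point because its replicate 1 summit lay over 1000 bp from its start.

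Signals differed more between genes than between libraries. Mrpl44, which encodes a large-subunit protein with a ribonuclease III-like fold, had the highest mean, with 20.4 in replicate 1 and 18.3 in replicate 2. Mrps9, a small-subunit gene with a bacterial counterpart, had 19.4 and 18.8. Mrps33, a small-subunit gene without one, had 18.8 and 18.03. Both libraries placed these genes near the top of the range. Mrpl32, whose product is trimmed by a mitochondrial inner-membrane protease before it joins the large subunit, had 18.1 and 18.3. Mrps14, a small-subunit gene with a bacterial counterpart, had 18.7 and 17.5. These 5 genes were the 5 of the 77 in the top 1% of all accessible promoters.

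The weakest promoter by mean signal was that of Mrpl49, a large-subunit gene without a bacterial counterpart, with 5.22 in replicate 1 and 5.09 in replicate 2. It was the one accessible promoter of the set in the bottom 10%. Mrps34, whose small-subunit product is needed for stability of the small ribosomal RNA, had 5.95 and 5.05. Mrps5, which encodes a small-subunit protein near the path of the messenger RNA, had 5.94 and 5.50. Mrpl49 was the lowest in replicate 1 and Mrps34 in replicate 2. Mrps6 had 6.79 and 6.26, and Mrps18b, 1 of 3 relatives of a single bacterial protein, had 7.77 and 7.19. Its relatives Mrps18a (16.1 and 15.5) and Mrps18c (16.6 and 15.8) each had more than 2 times the mean signal of Mrps18b.

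By role, the median signal was 15.2 for small-subunit genes with a bacterial counterpart, 13.3 for small-subunit genes without one, 12.1 for large-subunit genes with one and 13.6 for large-subunit genes without one. The 4 groups overlapped widely, and the first ran from 5.72 to 19.1. In the top 10% of all accessible promoters were 8 of 17, 2 of 9, 5 of 29 and 7 of 21 of them in the same order, with Mrps36 (15.5 and 15.9) as the remaining gene. Genes whose products have well-known tasks were spread across the range. Mrps12, a protein of the decoding centre, had 15.9 in both libraries. Mrpl58, a peptidyl-tRNA hydrolase that rescues stalled ribosomes, had 14.4 and 12.7. Mrps22, mutated in inherited mitochondrial disease, had 13.3 and 13.4. All 3 stood above the median of all accessible promoters in both libraries. Mrpl45, which holds the ribosome at the inner membrane, had 12.7 and 11.0. Mrpl12, a stalk protein also known to bind the mitochondrial RNA polymerase, had 11.5 and 12.01. Mrpl3, near the peptidyl transferase centre, had 10.1 and 11.7. Their mean signals stood at percentiles 55.8, 54.7 and 47.0 of all accessible promoters, close to the median.

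A gene start on the other strand lay close to many of these genes. Of the 78, 33 (42.3%, 31.2 to 54.0%) had a protein-coding start on the other strand within 1000 bp of a start of their own, against 2425 of all 20722 genes (11.7%). Because genes with accessible promoters have such neighbours more often than others, the share over the 13302 accessible genes is also given, and it was 17.2%. In 32 of the 78 (41.0%, against 10.2% of all genes) the summit of the gene's strongest region lay within 1000 bp of both starts, so that both genes had the same region. Among accessible genes alone this share was 41.6% of the 77, against 15.9% of the 13302. Such a start lay within 100 bp for 17 of the genes (21.8% of the 78, against 4.80% of all genes). The share was highest for large-subunit genes without a bacterial counterpart, at 13 of 21 (61.9%, 38.4 to 81.9%). It was 12 of 30 for large-subunit genes with one, 6 of 17 for small-subunit genes with one and 2 of 9 for small-subunit genes without one, and these intervals overlapped. The difference between groups was not tested.

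**Figure D2:**
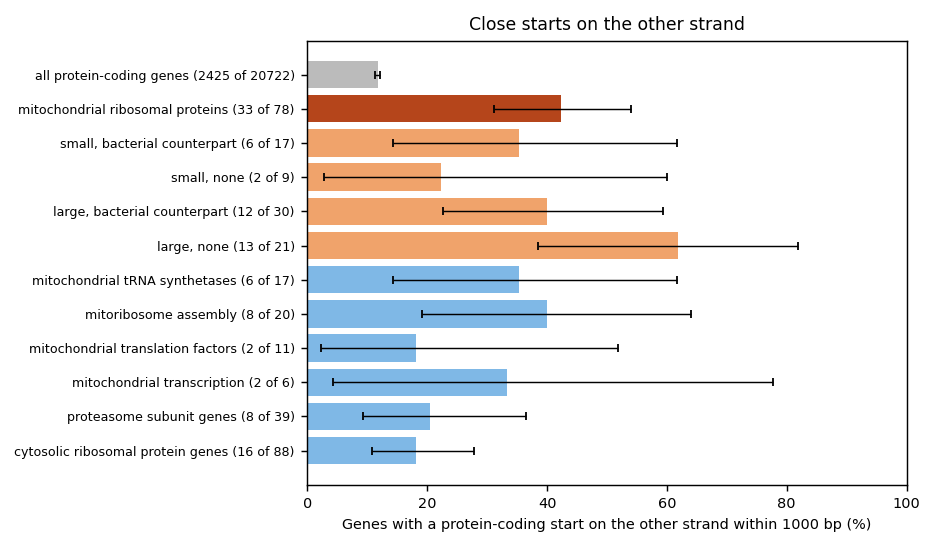
Share of genes (x axis, percent) with a protein-coding start on the other strand within 1000 bp, for all genes, the mitochondrial ribosomal protein genes and their role groups, and other gene lists (y axis, with counts). Error bars are exact 95% intervals for counting error, and the 42.3% of the mitochondrial ribosomal protein genes stands beside 18.2% of the cytosolic ones.

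Of the 33 genes with a neighbour, 24 (72.7%, against 79.0% of such genes in all) were head to head with it, with a stretch of DNA between the starts, and 9 overlapped it at the 5′ end. Mrpl46 and Mrps11 are each other's neighbour and count as 2 genes. The median distance between starts was 83 bp, against 127 bp over all genes with such a neighbour. The closest pairs were Mrpl18 with Tcp1, a chaperonin subunit gene, with 5′ ends overlapping by 16 bp, and Mrpl47 with Ndufb5, a respiratory complex I subunit gene, overlapping by 20 bp. Mrpl54 and Apba3 lay 26 bp apart. Mrps18c and the DNA helicase gene Helq lay 29 bp apart, as did Mrps34 and Eme2. Mrpl36 overlapped the complex I subunit gene Ndufs6 by 29 bp. At the far end, Mrpl41 and Pnpla7 at 935 bp were just inside the limit, and Mrpl34 and Abhd8 at 1304 bp just outside.

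The neighbours named next were picked after their identity was seen. Several serve mitochondria themselves: Twnk, the helicase of mitochondrial DNA, lay 116 bp from Mrpl43, Sars2, the mitochondrial seryl-tRNA synthetase gene, 182 bp from Mrps12, and Ptcd2, a mitochondrial RNA-binding protein gene, 81 bp from Mrps27. Mrpl46 and Mrps11 stood head to head with each other 30 bp apart, so the 77 genes used 76 different regions. Their common region had a signal of 16.2 in replicate 1 and 16.0 in replicate 2 and a width of 1068 and 1117 bp. Other partners belong to large complexes elsewhere in the cell: Fau, a cytosolic ribosomal protein gene, lay 59 bp from Mrpl49, and Psma2, a proteasome subunit gene, 75 bp from Mrpl32. Hira, a histone chaperone gene, lay 175 bp from Mrpl40. Both Eme genes, which encode partners of the nuclease Mus81, were neighbours, Eme2 of Mrps34 and Eme1 of Mrpl27, where the 5′ ends overlapped by 197 bp.

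The DNA between the starts of 6 of these pairs is shown because these stretches lie upstream of both genes. The accessible regions cover both starts and reach beyond the stretches. Each stretch is written 5′ to 3′ in the direction of the gene named first, from the mm10 build, and holds no annotated exon. Capitals mark matches on either strand to the consensus sequences for NRF1, ETS, YY1, SP, NFY, CREB, E-box and ZNF143 factors described further on.
Mrpl54 to Apba3, chr10:81266935-81266959, minus strand: acctccaaagccgatctggagggct
Mrps18c to Helq, chr5:100798599-100798626, plus strand: gtgACTTCCGGcccgggaagcgcgggaa
Mrpl46 to Mrps11, chr7:78783090-78783118, minus strand: gcccctcgccggcccgcgttgcctcatgg
Mrpl49 to Fau, chr19:6057786-6057843, minus strand: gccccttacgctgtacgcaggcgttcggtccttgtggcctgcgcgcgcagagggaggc
Mrpl32 to Psma2, chr13:14613166-14613239, minus strand: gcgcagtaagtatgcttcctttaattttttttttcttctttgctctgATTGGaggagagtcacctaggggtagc
Mrpl43 to Twnk, chr19:45006443-45006557, minus strand: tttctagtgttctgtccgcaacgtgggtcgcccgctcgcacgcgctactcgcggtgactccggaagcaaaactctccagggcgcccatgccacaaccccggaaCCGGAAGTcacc
The Mrps18c and Helq stretch of 28 bp and the Mrpl43 and Twnk stretch of 115 bp each hold 1 ETS match, the Mrpl32 and Psma2 stretch of 74 bp holds 1 CCAAT match, and the other 3 hold no match. Their G and C content ran from 41.9% for Mrpl32 and Psma2 to 79.3% for Mrpl46 and Mrps11.

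In all 32 shared cases the region covered both starts in both libraries. With a median of 83 bp between starts and regions of 1242.5 bp at the median, this follows largely from how shared cases were defined. The summit was nearer to the gene's own start for 16 of the 32 genes and nearer to the neighbour's for 16, in each library, and lay between the starts for 15. Mrpl46 and Mrps11, with 1 region, count once on each side. For Mrpl54 the summit lay downstream of its own start, and for Mrps18b and Ppp1r10, 177 bp apart, it lay beyond the neighbour's start. The gene outside this count was Mrpl48, whose 5′ end overlaps that of Rab6a by 304 bp. Mrpl48 has 7 starts and 3 promoter regions, and its strongest one (16.1 and 16.8) is at another start. A weaker one (14.7 and 13.7), at chr7:100607081-100608620 in replicate 1, covers the Mrpl48 and Rab6a starts, so this exception comes from using the strongest region alone. Genes with a neighbour had a median signal of 13.2 and a median width of 1242.5 bp, and genes without one 13.3 and 1154 bp.

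**Figure D3:**
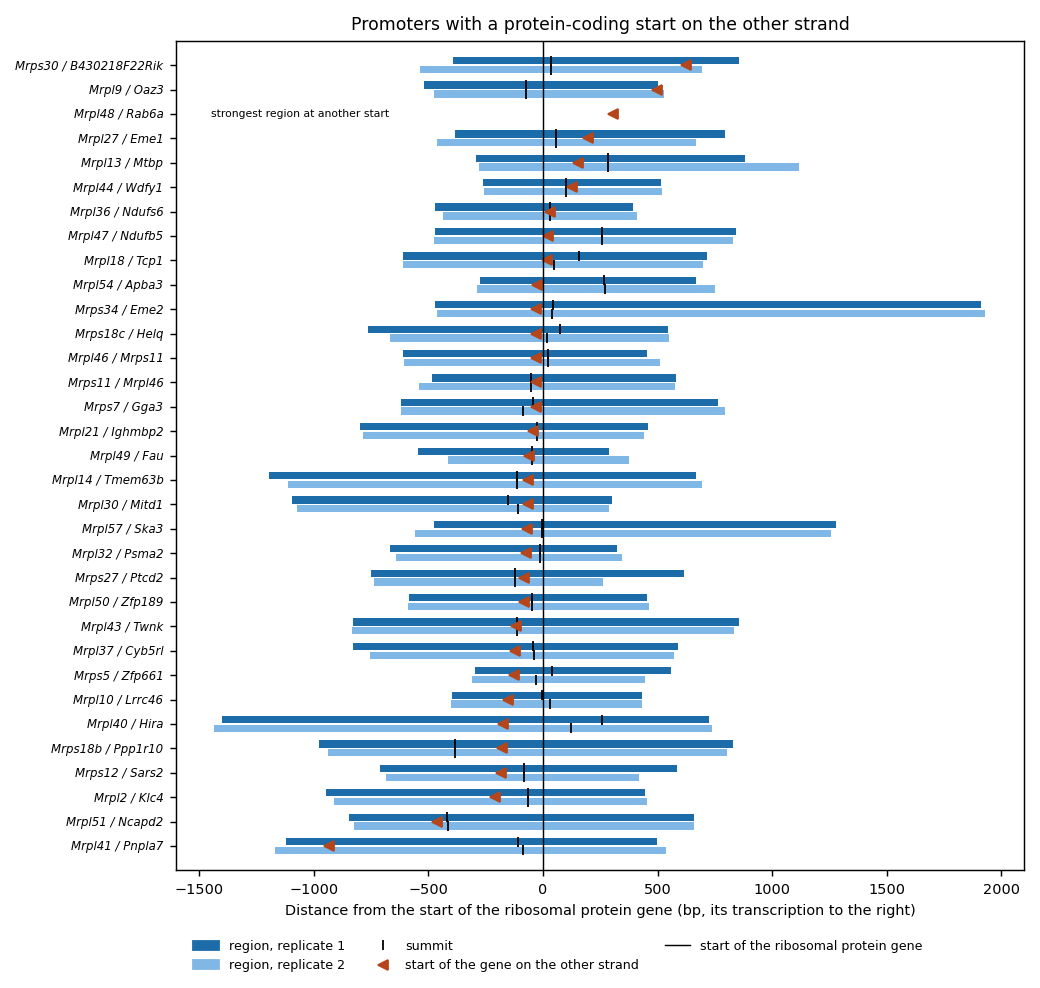
Promoter regions of the 33 genes with a close start on the other strand, as distance in bp from the start of the mitochondrial ribosomal protein gene (x axis, black line at 0, its transcription to the right). Bars are the regions of replicate 1 (dark) and replicate 2 (light), ticks the summits and triangles the neighbour's start, which every drawn bar covers.

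Each of 12 consensus sequences was searched on both strands in the 200 bp centred on the replicate 1 summit of the 77 promoters and of all 13302 accessible promoters. A match describes letters and does not show that a factor was bound. Matches to the consensus of NRF1, a factor known to act at many nuclear genes for mitochondrial proteins, were in 12 of the 77 (15.6%, 8.32 to 25.6%), against 7.32% of all accessible promoters. CCGGAAGT, of ETS factors such as GABPA, was in 10 (13.0%, 6.41 to 22.6%), against 6.66%. AANATGGCG, of YY1, was in 12 (15.6%, 8.32 to 25.6%), against 4.29%. At least 1 of the 3 was in 32 (41.6%, against 17.0%). Among cytosolic ribosomal protein and proteasome promoters the share with at least 1 was 34.6% and 36.1%.

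The other consensus sequences stood near or below the share of all accessible promoters. CCAAT, of NFY, was in 23 (29.9%, against 30.3%), and GGGGCGGGG, of SP and KLF factors, in 11 (14.3%, against 16.6%). CACGTG, the E-box of MYC, was in 3 (3.90%, against 6.6%). TGACGTCA of CREB (2.51% of all), the consensus of ZNF143 (1.95% of all) and TGANTCA of AP-1 (4.49% of all) were in 2 promoters each (2.60%). TGTGGTT of RUNX (2.43% of all) and TATAAA of the TATA box (2.38% of all) were in 1 each (1.30%). TCAAGGTCA of ESRRA was in 0 of 77, which allows up to 4.68%, against 0.0752% of all. In these 200 bp, apart from NRF1, ETS and YY1, no consensus was therefore more than slightly more frequent here than among all accessible promoters. This depended on the window: in 300 bp at the 5′ end, ZNF143 and RUNX matches were also in larger shares of the 77, as given further on.

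**Figure D4:**
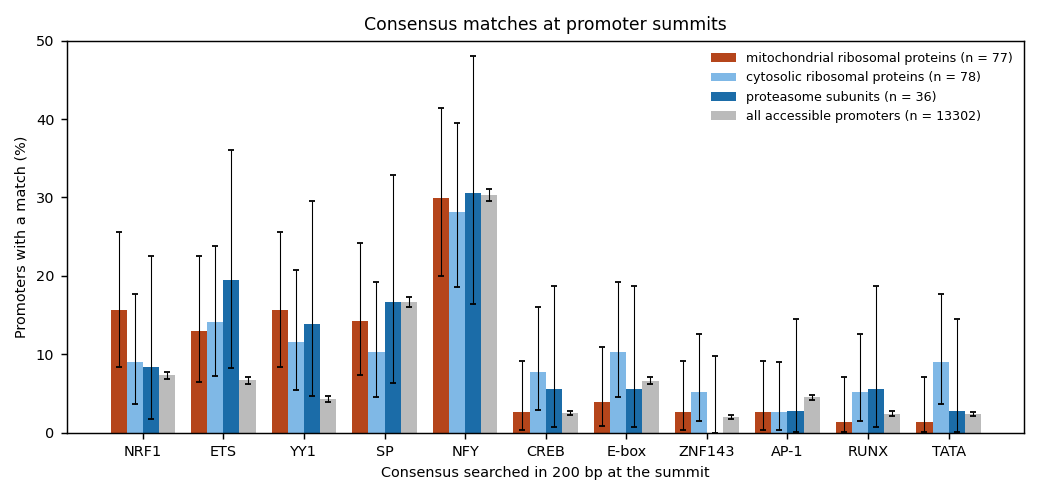
Share of promoters (y axis, percent) with a match to each consensus (x axis) in 200 bp at the summit, with exact 95% intervals for counting error. NRF1, ETS and YY1 bars of the mitochondrial ribosomal protein genes (15.6, 13.0 and 15.6%) stand above those of all accessible promoters (7.32, 6.66 and 4.29%), and the other pairs of bars lie close together or the reverse way.

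The sites below show where these letters fall in named genes. Each is written 5′ to 3′ on the strand of the match with 9 bases on each side, mm10, the consensus in capitals. The first 4 are NRF1 matches, the next 3 ETS matches and the last 6 YY1 matches.
Mrpl32, chr13:14613106-14613133, plus strand: gcccctcttGCGCATGCGCaagggtcaa
Mrps9, chr1:42851219-42851246, minus strand: ctggagactGCGCAGGCGCagacctccc
Mrpl12, chr11:120484547-120484574, minus strand: cggtgcgacGCGCAGGCGCggagacaat
Mrps33, chr6:39810869-39810896, plus strand: cctgacctcGCGCACGCGCgtccccgga
Mrps22, chr9:98601674-98601699, minus strand: cctctcgagCCGGAAGTtgctctatc
Mrpl3, chr9:105053240-105053265, plus strand: agaaacggaCCGGAAGTggcccggct
Mrps18c, chr5:100798593-100798618, minus strand: cttcccgggCCGGAAGTcacgtgacc
Mrpl35, chr6:71823744-71823770, minus strand: gcaggctgcAAGATGGCGgcttccatc
Mrps10, chr17:47368895-47368921, plus strand: cagggcaccAAGATGGCGgcgcgcgca
Mrps18a, chr17:46111006-46111032, plus strand: gtgcgttccAAGATGGCGgccctcagg
Mrpl45, chr11:97315862-97315888, plus strand: tgcgcgagcAAAATGGCGgcccccgta
Mrpl58, chr11:115403763-115403789, plus strand: tgggaggtgAACATGGCGaccgcctgg
Mrpl42, chr10:95501905-95501931, minus strand: gattgaagcAAGATGGCGagcgcgcgg
The NRF1 match of Mrps9 lies 1 bp from the start, in an untranslated exon, and that of Mrpl12 lies 53 bp upstream of it. The ETS match of Mrps22 lies 26 bp upstream, and that of Mrpl3 13 bp downstream in an untranslated exon. Of the 10 ETS matches 9 lay within 50 bp of the gene's start, with 5 upstream and 5 downstream. The 14 NRF1 matches in 12 genes were likewise 7 upstream and 7 downstream, but up to 378 bp away, in Mrpl39.

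The YY1 matches sat differently. Of 12, 10 were on the gene's own strand, 8 lay in a coding exon and 2 in an untranslated exon. In 10 of the 12 promoters (83.3%) the ATG inside AANATGGCG was itself an annotated start codon of the gene or, for Mrps7 and Mrps11, of its neighbour, as in Mrpl35, Mrps10, Mrps18a, Mrpl45 and Mrpl58 above. Among all accessible promoters with a match, this held for 223 of 570 (39.1%). Matches at a start codon were in 13.0% of the 77 promoters and in 1.68% of all accessible promoters. Matches elsewhere were in 2 of the 77 (2.60%), Mrpl37 and Mrpl42, against 2.61% of all. The difference from all accessible promoters was thus in matches at start codons. Proteasome subunit genes gave similar values, with 4 of 5 matches at a start codon (80%) in 11.1% of their 36 promoters. For cytosolic ribosomal protein genes it was 4 of 9, in 5.13% of 78. The match counted for Mrps11 is the start codon of Mrpl46, in their common region.

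The NRF1 and ETS shares depended on the width searched. In the 100 bp at the summit, NRF1 matches were in 3 of 77 (3.90%, against 3.89% of all) and ETS matches in 2 (2.60%, against 3.71%). YY1 matches were in 9 (11.7%, against 2.53%). In the 300 bp from 250 bp before to 50 bp after the gene's 5′ end, NRF1 was in 12 (against 9.10% of all), ETS in 10 (against 7.03%) and YY1 in 11 (against 4.16%). The NRF1 and ETS matches thus lay mostly outside the central 100 bp.

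Summits lay close to starts. In replicate 1 the summit was within 100 bp of the nearest start in 54 of 77 (70.1%) and in replicate 2 in 57 (74.0%), against 58.3% and 58.1% of all accessible promoters. The median distance was 53 and 56 bp, against 78 and 79 bp. Summits fell on both sides, 40 upstream and 36 downstream in replicate 1. The gene's 5′ end was covered by 72 of the 77 regions, and the same share over all accessible promoters is not given here. The summit farthest from its start among the accessible genes was that of Mrpl4, at 541 bp. More than 1 promoter region was present for 5 genes in replicate 1 and 4 in replicate 2, also without a share over all accessible promoters. Mrpl1, a large-subunit stalk gene, had regions of 510 and 1025 bp in replicate 1 and, in replicate 2, 1 region of 1729 bp that spanned both. Its signal was 9.08 and 8.92.

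Regions of these genes were slightly narrower than others at the median. Their median width was 1171 bp in replicate 1 and 1175 bp in replicate 2, against 1257 and 1243 bp for all accessible promoters. Wider than the median of all were 28 of the 77, against 6642 of all 13302 by construction. The widest belonged to Mrps34 (2384 and 2394 bp), Mrpl40 (2126 and 2170 bp) and Mrpl14 (1863 and 1808 bp), each with a neighbour on the other strand. The narrowest belonged to Mrps10 (709 and 686 bp), Mrpl22 (741 and 676 bp) and Mrps17 (684 and 784 bp), none with such a neighbour. Mrps17, a small-subunit gene, combined a narrow region with a high signal, 17.3 in replicate 1 and 15.5 in replicate 2. Mrps34 joined a very wide region to a weak signal. Over the 77 genes the correlation of mean signal and mean width was −0.27 (Pearson) and −0.24 (Spearman), and over all accessible promoters it was −0.0083 and −0.026. Both quantities come from the same region call, so these coefficients are only descriptions. Base composition was similar to that of all accessible promoters, with a median G and C content of 64% at the summit against 65.5%.

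**Figure D5:**
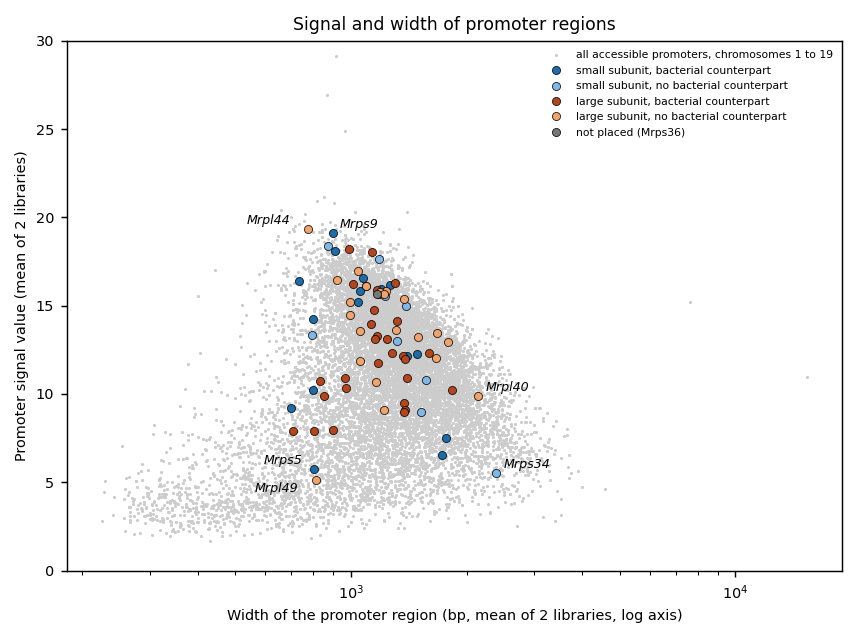
Mean promoter signal (y axis, fold enrichment) against mean region width (x axis, bp, log axis) over 2 libraries, for all accessible promoters (grey) and the 77 mitochondrial ribosomal protein genes (coloured by subunit and bacterial counterpart). Mrpl44 and Mrps9 lie at the top with regions under 1000 bp, and Mrps34 is wide and weak.

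The libraries gave nearly the same order of genes. Over the 77, the correlation of replicate 1 with replicate 2 signal was 0.97 (Pearson) and 0.96 (Spearman), and that of width 0.90 and 0.87, as a description over genes that share both libraries. Signal was higher in replicate 1 for 58 of the 77 (72.0% of all accessible promoters), by a median of 0.06 on the log2 scale, with an SD of 0.10 over the genes. Over all accessible promoters the median was also 0.06, with an SD of 0.15. The authors' −log10 q was higher in replicate 1 for 75 of the 77, and for 12688 of all 13302 accessible promoters. Its median ratio was 1.45, against 1.42 for all accessible promoters. The offset between libraries was therefore that of the lists as a whole. The largest differences on the log2 scale were 0.31 for Mrpl21 (14.5 and 11.7), 0.30 for Mrps30 (17.5 and 14.2) and 0.24 for Mrps34. No gene differed by 2 times or more.

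Regions away from protein-coding starts were counted for each gene. Each locus was the gene with flanks of 20 kb. A distal region was one present in both libraries with its summit more than 1000 bp from every protein-coding start. Starts of other transcripts were not excluded, so promoters of noncoding transcripts can be among these regions. A region counted for Mrpl33 (8.88 and 8.60) had its summit 41 bp upstream of that gene's annotated 5′ end. The 78 loci held 158 different distal regions, and 161 when regions between neighbouring loci were counted for each. The median was 2 per locus, as for all genes, and 40 lay in gene bodies. None was found in 15 loci (19.2%, against 26.2% of all genes). Against the 13302 accessible genes the direction turned: 10.8% of these had none and their median was 3, against 19.5% and 2 for the 77 accessible genes here. The genes are short, with a median length of 7.90 kb against 17.6 kb for all genes. Per 100 kb of locus they had 3.82 distal regions against 3.24 for all genes. This density was not computed for the accessible genes alone. The median replicate 1 signal of these distal regions was 6.24, against 6.63 for all distal regions.

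Mrpl45 had the most, 7, and Mrps6, Mrpl1, Mrpl39, Mrps28 and Mrps27 had 6 each. Distal regions stronger than the promoter of the same gene numbered 13, and the share over all genes was not computed. The strongest lay 8.56 kb into Mrps27, a small-subunit gene whose product has RNA-binding repeats, at chr13:99352991-99353810 (mm10). Its signal was 20.8 in replicate 1 and 17.3 in replicate 2, against 17.4 and 17.8 at the Mrps27 promoter, so the order of the 2 regions was not the same in both libraries. A region 17.1 kb from the Mrpl14 start, at chr17:45703072-45704085, had 17.5 and 16.5, above the 10.2 and 10.3 of the Mrpl14 promoter in both libraries. The nearest gene does not need to be the one a distal region acts on, and this was not tested. Mrps6, with a weak promoter, had distal regions that were all weak as well, from 2.74 to 5.56 on average over the libraries. Mrps28, by contrast, had a region in its gene body with a signal of 15.2 and 14.4, close to its promoter's 16.5 and 15.1.

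Other genes of mitochondrial translation were also mostly accessible. All 5 mitochondrial ribosomal proteins with other symbols, all 11 translation factors, all 17 mitochondrial tRNA synthetases and all 6 genes of mitochondrial transcription had an accessible promoter, as did 19 of 20 genes for assembly of the ribosome and modification of its RNA. The exception was Mtg2, a GTPase gene of large-subunit assembly. Its absence depended on the definition, as for Mrpl34. All 20 assembly genes, Mtg2 included, were counted when only the 5′ end of each gene served as its start. The same held when summits up to 2000 bp away were allowed, or any base of a region within 1000 bp. Median signals of the gene lists, in the order first named, were 8.52, 12.5, 13.2, 12.8 and 13.0. Gfm1, the elongation factor that moves the ribosome along, had 19.6 and 18.7, and Polrmt, the mitochondrial RNA polymerase, 19.6 and 18.01, as high as the strongest of the 77. Ddx28, an RNA helicase of large-subunit assembly, had 5.27 and 5.58. Close starts on the other strand, present in 11.7% of all genes, were found for 8 of 20 assembly genes (40%), 6 of 17 tRNA synthetase genes (35.3%), 2 of 11 translation factor genes (18.2%), 2 of 5 ribosomal protein genes with other symbols and 2 of 6 transcription genes. One of the synthetase genes is Sars2, beside Mrps12.

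The cytosolic ribosomal protein genes gave lower values. They were taken by symbol, as Rpl or Rps followed by a digit, or Rplp0, Rplp1, Rplp2 or Rpsa, without the Rps6k kinases. A symbol alone does not show that a gene encodes a part of the common cytosolic ribosome, and this was not checked. Of 88, 78 (88.6%) had an accessible promoter, with a median signal of 9.41 and none in the top 10%, and 16 (18.2%) had a close start on the other strand. Of 39 proteasome subunit genes, 36 (92.3%) were accessible, with a median signal of 14.4, 7 in the top 10%, and 8 of 39 (20.5%) had such a neighbour. The mitochondrial ribosomal protein genes were thus nearer to the proteasome genes in signal, and a higher share of them had a close start on the other strand than in either list. These are counts over genes of 2 libraries, and the differences between lists were not tested.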

How the data were processed

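ATAC-seq peaks of 2 libraries were analysed on the mm10 build, each list made from its own alignments and not pooled, per the deposited notes. The aligner, peak caller, versions and threshold are not given in the sources used here. The deposited signal is a ratio, read from its values as fold enrichment. The authors' score and −log10 p were not used beyond checks, and the authors' −log10 q (smallest 1.02 in replicate 1 and 1.01 in replicate 2) described and filtered peaks. No scaling between libraries is stated, and the depth behind the values is unknown.

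Only peaks of the named chromosomes entered, 78016 in replicate 1 and 74653 in replicate 2. Starts came from protein-coding transcripts of GENCODE mouse release 21, and sequence from the matching RefSeq GRCm38.p6 assembly. Scripts used Python 3.11.15 with pandas 2.3.3, numpy 2.4.6 and scipy 1.17.1, and were tested on simulated peaks. Shares carry exact Clopper-Pearson 95% intervals.

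The genes and lists were chosen with earlier results of these data known. The named genes are the 5 strongest and 5 weakest promoters, the 3 widest and 3 narrowest, the 3 with most distal regions (with ties), the 5 closest neighbours (with ties), the 3 largest library differences, any gene without an accessible promoter, and 11 of known function. Others are named for a neighbour, a sequence or a limit and were chosen after their values were seen. Alternatives varied the peak threshold, the distance to a start, the starts used, the flanks, the motif window and the library left out. One marker gene of the lists is not reported here.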

Additional observations from a re-analysis of the deposited data

How the results depend on the processing

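Between 75 and 78 of the 78 genes were accessible under every alternative run: 75 with the gene's 5′ end alone, 76 with summits within 500 bp, 77 with a −log10 q of at least 5 or the 50000 strongest peaks, and 78 within 2000 bp, with any base of a region near a start, or in either library. Without replicate 1 or replicate 2 the count was 77 to 78, and the share of all genes ran from 58.2 to 67.7% over these settings. Close starts on the other strand were found for 31 genes within 500 bp, 35 within 2000 bp, 33 with 5′ ends alone and 37 with neighbours of any biotype, where 10.4, 13.0, 11.2 and 21.6% of all genes had one. The median width was 1171 to 1175.5 bp when 1 library was left out, and the median signal 12.8 to 13.7. Of single genes, Mrpl36 moved by more than its spread, to 8.99 with its nearest region in place of its strongest. The nearest region was not the same in both libraries, with a signal of 10.4 in replicate 1 and 7.63 in replicate 2.

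The distal sum was 40 in gene bodies alone, 389 with 50 kb flanks and 101 with the 50000 strongest peaks. The median per locus was then 0, 5 and 1 (0, 4 and 1 for all genes), and 1 with a −log10 q of at least 5 (2 for all genes). In 100 bp at the summit the counts of genes with a match were 3 for NRF1, 2 for ETS, 4 for SP, 1 for CREB, 1 for ZNF143, 0 for RUNX and 0 for TATA, a narrower window holding fewer letters. In 300 bp at the 5′ end they were 5 for E-box (6.49%, against 9.80% of all accessible promoters), 4 for ZNF143 (5.19%, against 2.10%), 5 for RUNX (6.49%, against 4.14%) and 5 for TATA (6.49%, against 7.49%), and without replicate 1 RUNX had 0 to 1. No paired analysis was possible because the labels give 1 group and no comparison between groups. Because depth is unknown, absence of a region may also mean that it fell under the threshold.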

Other observations

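The annotation also holds 5 processed pseudogenes of this family on chromosomes 1 to 19, namely Mrpl23-ps1, Mrpl48-ps, Mrps36-ps1, Mrps36-ps2 and Mrps36-ps3. None had a region within 1000 bp of it in either library, whereas the parent genes Mrpl23 (11.2 in replicate 1 and 10.6 in replicate 2), Mrpl48 (16.1 and 16.8) and Mrps36 (15.5 and 15.9) all had accessible promoters. The share of all processed pseudogenes with such a region was not computed, so the contrast is not shown to be particular to this family. Reads from near-identical copies can be lost in alignment, and whether this touched the pseudogenes was not tested.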
